A study of Homo sapiens with 6 samples.

Results

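Very long genes are described here: 67 genes of MHCC97H cells whose annotated locus covers at least 500 kb and whose mean over the 6 libraries was at least 1 FPKM (fragments normalized for transcript length and library size). They are 67 of 58302 genes in the table. The table held 370 loci of that span, of which 302 had a mean under 1 FPKM and 61 of these were listed at 0 in every library. MIR99AHG, a microRNA host gene, met both thresholds and was left out by name. The rule drops names that start with MIR or COL or end in -AS1. Long genes under other names whose loci overlap a microRNA row, such as LPP with MIR28, were kept. The genes were chosen by their mean FPKM over all libraries, so their being expressed is no finding. It did not use the comparison between the groups, although the set was proposed with results of that comparison known.

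MHCC97H is a human hepatocellular carcinoma line. Total RNA was sequenced from 3 libraries of cells carrying a non-target CRISPR/Cas9 control and 3 libraries of cells in which CRISPR/Cas9 had been aimed at DDX17, an RNA helicase gene (group DDX17_KO). All cells grew in DMEM with fetal bovine serum, and no further treatment is named. The labels do not say whether the DDX17_KO line is 1 clone or a pool, nor that the libraries came from separate cultures, so p-values measure the spread between these libraries, which may be technical.

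A gene of this size is almost all intron. RNA polymerase needs many hours to cross it, and its transcript must be spliced over very long introns, so that such genes are known to be sensitive to the loss of topoisomerases, elongation factors and some RNA-binding proteins. Many encode large scaffold, adhesion and trafficking proteins, and several lie at common fragile sites, where replication and transcription meet under stress.

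DDX17 RNA stood at 45.7, 41.4 and 43.9 FPKM in controls 1, 2 and 3 and at 22.4, 7.64 and 19.1 FPKM in DDX17_KO 1, 2 and 3, for a log2 fold change of -1.48 (limma, adjusted p 0.282). Depth, estimated from the steps between low FPKM values, was 12340000 to 14560000 fragments in the controls and of 5350000 to 10620000 in DDX17_KO, where replicate 2 was the shallowest. Replicate 2 of each group stood apart from the other libraries of its group. Of the liver markers only CPS1, at 299 FPKM, passed the filter on low values; ALB and AFP, the albumin and alpha-fetoprotein genes, had means of 0.153 and 0.019 FPKM. The epithelial keratins KRT8 and KRT18 were abundant, at 112 and 198 FPKM, whereas EPCAM and CDH1 lay under 0.5 FPKM. Of 8 erythroid markers 3 were tested and all 3 were called lower; their summed level was 54.0 to 69.6 FPKM in controls, against 0.021 to 0.673 FPKM in DDX17_KO. The fibroblast and stellate list summed to 40.6 to 48.8 FPKM in controls, against 51.1 to 92.8 FPKM in DDX17_KO, and its markers went both ways. Of its 6 tested genes, 1 was higher without overlap (COL3A1, means of 22.2 and 46.8 FPKM) and 2 were lower without overlap (COL1A1, 13.6 and 8.22 FPKM, and PDGFRB, 1.53 and 0.832 FPKM). Whether these markers have a part in the values of the long genes was not tested. In bulk RNA, fewer cells of a type and less RNA per cell cannot be told apart.

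The 67 genes had a median span of 685.3 kb, and 9 of them spanned at least 1000 kb. DMD, the dystrophin gene (ENSG00000198947, hg38 chromosome X, 31097677 to 33339441), was the widest at 2242 kb, followed by LRP1B at 1900 kb and PDE4D at 1553 kb. In GENCODE release 29, 65 were protein-coding, with a long intergenic RNA gene, AC016205.1, and the processed transcript DLEU1 making up the rest. The longest coding transcript of each gene, or the longest transcript where none was coding, had a median of 18 exons and 6817 bases, and the median share of the locus that it covered as exon was 0.851%. In 53 of the 67 that transcript itself spanned at least 500 kb. In RUNX1, EGLN3, GSE1, DLEU1, SPAG16 and SUMF1 it spanned under 110 kb, so that the width of those loci comes from other annotated transcripts. The FPKM table does not tell which transcript was read. Another tested gene overlapped 35 of the 67 loci, and the sources used here give no strand setting for the counting. The genes lay on 21 chromosomes, with 9 on chromosome 3 and 8 on chromosome 6.

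Promoter sequences were looked up in RefSeq (GRCh38.p14) for what the long genes share beyond span, and 56 of the 67 had an entry of 300 bases, 250 before and 50 after the start. Their median GC content was 66.7%, with a median of 29.5 CpG dinucleotides per 300 bases, against 14 over all 35116 promoters and 26 over 12140 promoters of tested protein-coding genes. The letters TATAAA, on either strand, were present in 5.36% of them, in 11.5% of all promoters and in 5.68% of those of tested coding genes. The letters GGGCGG, on either strand, were present in 62.5%, in 45% and in 67.8%. The 100 bases before the start are shown for 4 genes with a positive log2 fold change (LPP, PDE10A, UTRN, LRBA) and for 3 with a negative one (RUNX1, TTC28, ADARB2), 5′ to 3′ on the gene's strand, with CpG in capitals.
LPP, chr3:188153798-188153897, plus strand: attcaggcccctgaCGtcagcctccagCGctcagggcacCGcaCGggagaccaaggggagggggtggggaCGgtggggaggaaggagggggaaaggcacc
PDE10A, chr6:165663242-165663341, minus strand: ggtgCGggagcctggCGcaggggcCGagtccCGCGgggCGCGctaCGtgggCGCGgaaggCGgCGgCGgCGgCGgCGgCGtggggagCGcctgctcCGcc
UTRN, chr6:144285235-144285334, plus strand: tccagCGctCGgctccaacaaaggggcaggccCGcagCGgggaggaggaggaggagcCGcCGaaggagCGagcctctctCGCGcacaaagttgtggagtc
LRBA, chr4:151015728-151015827, minus strand: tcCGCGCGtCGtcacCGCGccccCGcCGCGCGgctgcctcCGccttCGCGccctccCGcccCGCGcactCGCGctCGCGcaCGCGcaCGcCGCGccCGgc
RUNX1, chr21:34888700-34888799, minus strand: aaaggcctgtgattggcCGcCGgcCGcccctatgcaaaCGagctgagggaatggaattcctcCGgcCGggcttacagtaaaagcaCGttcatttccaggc
TTC28, chr22:28679841-28679940, minus strand: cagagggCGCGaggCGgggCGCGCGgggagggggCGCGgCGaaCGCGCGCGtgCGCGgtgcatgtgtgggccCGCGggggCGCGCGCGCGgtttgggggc
ADARB2, chr10:1737526-1737625, minus strand: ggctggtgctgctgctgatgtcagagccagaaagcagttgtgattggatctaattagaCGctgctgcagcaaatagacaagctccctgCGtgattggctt
The CpG count in these 100 bases ran from 2 in ADARB2 to 26 in LRBA, with 5 in LPP and 22 in TTC28, so both directions included a promoter with few and one with many. The RefSeq start lay within 1000 bases of the start of the deposited locus in 41 of the 56 genes. It lay 1115968 bases inside the locus in RUNX1 and 323362 bases inside it in PDE10A, which have several starts.

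None of the 67 genes passed the threshold, an adjusted p of 0.05 by limma over 15620 tested genes. By limma 0 were called higher and 0 lower, where the same call covered 0% and 0.0384% of all tested genes. At an unadjusted p under 0.05, 5 were higher and 4 lower in DDX17_KO, where 6.31% and 7.19% of all tested genes were. In 12 of the 67 the groups were separate: all DDX17_KO values lay above all control values in 4 (5.97%, against 8.09% of tested genes) and below them in 8 (11.9%, against 12.6%). These shares were near those of all tested genes. The log2 fold change, on the log2(FPKM + 1) scale that understates the change of low genes, was above 0 in 40 (59.7%), where 47.5% of tested genes were above 0. Its median was 0.15, against -0.03 over all tested genes and -0.10 over 9561 coding genes of a span under 500 kb with a mean of at least 1 FPKM. It ran from -0.91 in TRAPPC9 to 1.43 in UTRN. The mean was at least 1 FPKM in both groups in 58 genes, whose median was 0.13. A further 6 genes were under 1 FPKM in controls, and 3 were under it in DDX17_KO. These 9 had entered through the group in which they were higher. The 6 were NBEA, GRIK2, LRP1B, RABGAP1L, ENOX1 and DLEU1, so that LRP1B and DLEU1 among the 4 separate higher genes had entered in this way. The 3 were DNAH14, MTUS2 and PRKCE, so that PRKCE among the 8 separate lower genes had entered through the controls.

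**Figure D1:**
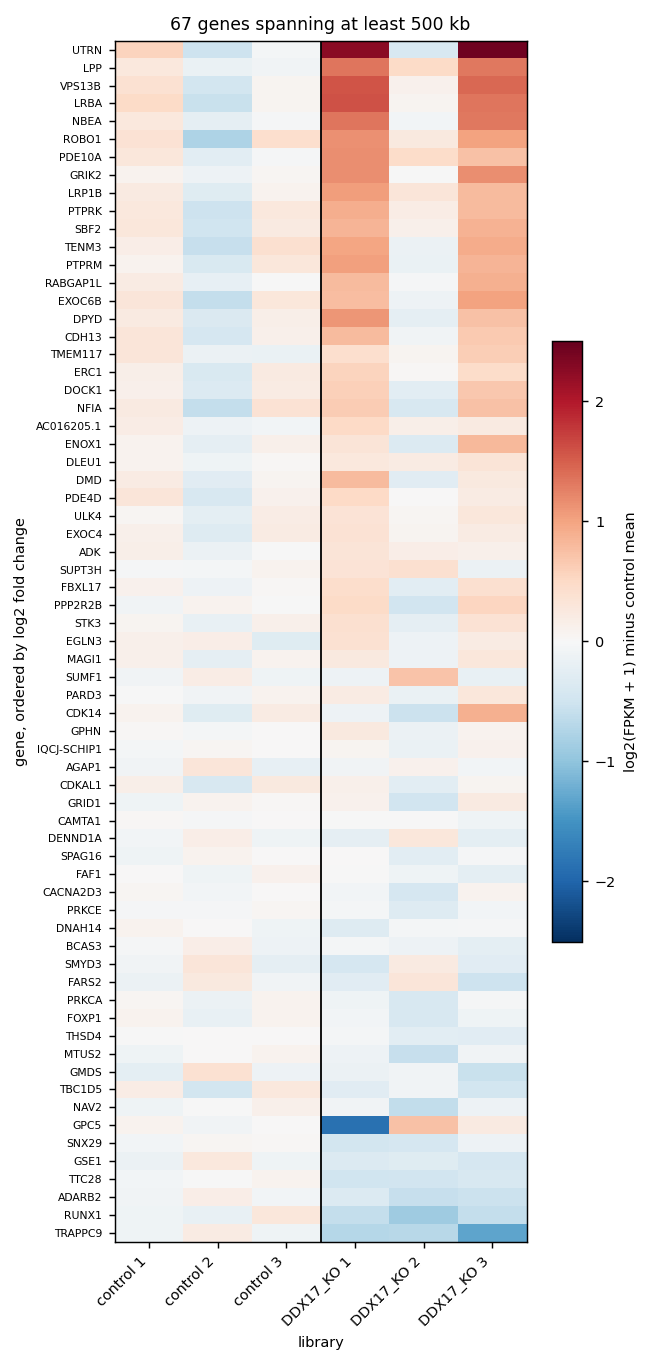
Heat map of the 67 genes (rows, ordered by log2 fold change) in the 6 libraries (columns), coloured by log2(FPKM + 1) minus the mean of the 3 controls. The columns of DDX17_KO 1 and 3 are red in the upper rows and DDX17_KO 2 is pale there, while TRAPPC9, RUNX1, ADARB2 and TTC28 at the bottom are blue in all 3 DDX17_KO columns.

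DDX17_KO 1 and 3 lay above every control in 35 genes (52.2%), where 28.2% of tested genes did so, and in 31 of these 35 DDX17_KO 2 lay within or below the controls. It did so in 3142 of 4406 such genes among all tested and in 2267 of 2568 among coding genes under 500 kb with a mean of at least 1 FPKM, so the count of 31 is no result about the long genes. The 35 include NBEA, GRIK2, LRP1B, RABGAP1L, ENOX1 and DLEU1, which had met the mean threshold through DDX17_KO. Under 43% transcript GC, 66.7% of the long genes and 64.6% of these shorter coding genes had DDX17_KO 1 and 3 above every control. From 43% to 47% the shares were 66.7% and 35.3%, and from 47% to 51% they were 61.1% and 12.7%. From 51% upward they were 12.5% and 1.56%. DDX17_KO 1 and 3 lay below every control in 12 genes (17.9%, against 32.6% of tested genes), and DDX17_KO 2 joined them in 8. The median deviation of the 67 genes from the control mean was 0.26 in DDX17_KO 1, -0.12 in DDX17_KO 2 and 0.22 in DDX17_KO 3. In the controls it was 0.09, -0.14 and 0.05 for replicates 1, 2 and 3. Over all tested genes it lay between -0.04 and 0.02 in every library. Control 2 was the lowest control in 44 of the 67 genes (65.7%, against 38% of tested genes), and DDX17_KO 2 the lowest of its group in 48 (71.6%, against 40.1%). Under 43% transcript GC, control 2 was lowest in 85.7% of long and 83.1% of shorter coding genes, and DDX17_KO 2 in 85.7% and 83.7%. From 43% to 47% the shares were 91.7% and 62.2%, and 83.3% and 59.7%. From 47% to 51% they were 77.8% and 30.5%, and 83.3% and 31%. From 51% upward they were 6.25% and 4.49%, and 31.2% and 9.53%. The part of GC content in the order of the libraries was not tested. Without control 2 the groups were separate in 5 genes on the higher and 14 on the lower side, where 10.4% and 14.9% of tested genes were. Without DDX17_KO 2, limma called 5 of the long genes higher and 0 lower, where 1.95% and 1.72% of all tested genes were called. The 5 were UTRN, GRIK2, LPP, NBEA and VPS13B, of which GRIK2 and NBEA were among the genes that had met the mean threshold through DDX17_KO. The library left out, DDX17_KO 2, had the least DDX17 RNA, at 7.64 FPKM. These calls therefore rest on DDX17_KO 1 and 3, which kept more of it, at 22.4 and 19.1 FPKM. Whether the calls follow the level of DDX17 was not tested. With both libraries numbered 2 left out, 11 were called higher and 0 lower, where 5.51% and 3.3% of tested genes were called. In the GC and length corrected values without DDX17_KO 2, a setting added after seeing the data, 2 were called higher, UTRN and again GRIK2, and 0 lower, where 0.736% and 0.877% of tested genes were. Blocking on the replicate number, the count was again 0, at 0% and 0.0256% of tested genes, and at an unadjusted p 19 were higher and 5 lower, where 15.1% and 13.4% of tested genes were.

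Genes of cell adhesion, junctions and polarity had log2 fold changes above 0 in 9 of 9, with a median of 0.59, and none passed the threshold. Of the 67 genes, 17 were given a role after values were seen, so this count is a description only. GPC5, a glypican of the cell surface at -0.30, was placed with metabolism and glycosylation. Of all 67 genes 59.7% were above 0, and of tested genes 47.5%. The 9 include LRP1B, which had met the mean threshold through DDX17_KO. Their median deviation from the control mean was 0.99, -0.09 and 0.79 in DDX17_KO 1, 2 and 3. LPP (ENSG00000145012, chromosome 3, 188153284 to 188890671), which encodes a LIM domain protein of focal adhesions and cell contacts, stood at 1.81, 1.09 and 1.21 FPKM in controls 1, 2 and 3. In DDX17_KO 1, 2 and 3 it stood at 4.93, 2.27 and 4.86 FPKM. Its locus overlaps LPP-AS2 and 2 other tested genes. The groups did not overlap, and the means were 1.37 ± 0.39 and 4.02 ± 1.52 FPKM (SD, n = 3 each). For LPP the log2 fold change was 1.04 (SE 0.27, adjusted p 0.298). Without DDX17_KO 2 it was 1.33 (adjusted p 0.0303; 0.00908 to 0.79 across 18 settings).

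ROBO1 (ENSG00000169855, chromosome 3, 78597240 to 79767815), a receptor for the guidance ligands of the SLIT family, was among the most abundant of the long genes. It had 9.36, 3.71 and 9.72 FPKM in the controls and 16.7, 8.57 and 15.1 FPKM in DDX17_KO 1, 2 and 3. DDX17_KO 1 and 3 lay above all controls and DDX17_KO 2 between them, and the log2 fold change was 0.80 (95% confidence interval -0.09 to 1.68). LRP1B (ENSG00000168702, chromosome 2, 140231423 to 142131701), a large receptor of the LDL receptor family, had 1.27, 0.565 and 1.06 FPKM in controls, against 2.98, 1.38 and 2.36 FPKM in DDX17_KO. Its groups did not overlap, at a log2 fold change of 0.71 (adjusted p 0.357), but after GC and length correction the value was 0.22 and the groups overlapped.

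PTPRK and PTPRM, receptor tyrosine phosphatases that bind their like on neighbouring cells, had log2 fold changes of 0.62 and 0.57. PTPRM (ENSG00000173482, chromosome 18, 7566782 to 8406861) stood at 4.57, 3.00 and 5.37 FPKM in controls, against 9.67, 3.65 and 8.45 FPKM in DDX17_KO, where replicate 2 lay inside the control range. PTPRK had 3.26 ± 1.19 and 5.51 ± 1.59 FPKM, and its lowest DDX17_KO library, replicate 2 at 3.71 FPKM, again lay within the controls. TENM3, a teneurin adhesion protein gene, had a log2 fold change of 0.59, and CDH13, the gene of a cadherin anchored by a lipid tail, of 0.45. Without DDX17_KO 2 the values were 0.94 for PTPRM, 0.96 for TENM3 and 0.72 for CDH13, none past the threshold. With both libraries numbered 2 left out PTPRK, PTPRM, TENM3 and ROBO1 passed it, at 0.58, 0.75, 0.67 and 0.68. PARD3 and MAGI1, scaffold genes of tight junctions and cell polarity, had the smallest values, 0.11 and 0.14. PARD3, at 8.53 ± 0.57 FPKM in controls, against 9.36 ± 1.63 FPKM in DDX17_KO, differed by less than the spread between libraries (95% confidence interval from -0.33 to 0.55).

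**Figure D2:**
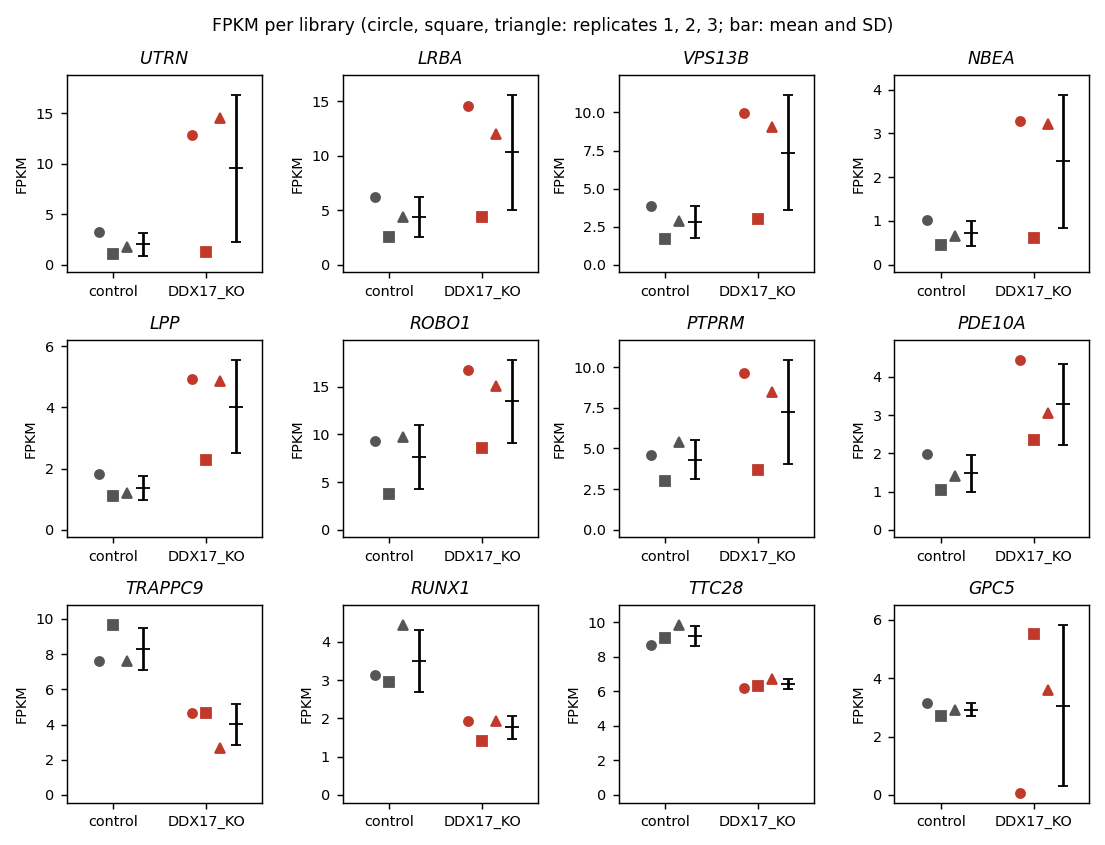
FPKM of 12 long genes in each library (grey, control; red, DDX17_KO; circle, square and triangle for replicates 1, 2 and 3), with the mean and SD of each group. In UTRN, LRBA, VPS13B, NBEA and PTPRM the square of DDX17_KO lies among the grey points, in LPP and PDE10A every red point lies above the grey ones, and in TRAPPC9, RUNX1 and TTC28 every red point lies below them.

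Among 14 genes of membrane traffic, endocytosis and protein turnover, 8 lay above 0 and 6 below, and the median log2 fold change was 0.20. The extremes were large scaffold proteins of vesicle traffic on the high side and TRAPPC9 on the low side. LRBA and NBEA are paralogues of the BEACH domain family, whose products act in vesicle traffic. LRBA (ENSG00000198589, chromosome 4, 150264531 to 151015727) had 6.17, 2.49 and 4.38 FPKM in controls, against 14.5, 4.37 and 12.0 FPKM in DDX17_KO 1, 2 and 3. NBEA (ENSG00000172915, chromosome 13, 34942287 to 35673022) had 1.02, 0.459 and 0.653 FPKM in controls, against 3.27, 0.608 and 3.20 FPKM in DDX17_KO. In both, DDX17_KO 1 and 3 stood clear of the controls and DDX17_KO 2 lay among them. The log2 fold changes were 1.00 ± 0.44 for LRBA and 0.85 ± 0.38 for NBEA (SE), at adjusted p values of 0.369 and 0.371. Without DDX17_KO 2, NBEA was at 1.32 (adjusted p 0.0316; 0.0129 to 0.79 across 17 settings).

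VPS13B (ENSG00000132549, chromosome 8, 99013266 to 99877580), which encodes a lipid transfer protein at the Golgi, stood at 3.83, 1.71 and 2.89 FPKM in controls, against 10.0, 3.00 and 9.07 FPKM in DDX17_KO. DDX17_KO 2 again lay among the controls, and the log2 fold change was 1.04 (95% confidence interval 0.09 to 1.99). Without DDX17_KO 2 it was 1.51 (adjusted p 0.0399; 0.0134 to 0.79 across 18 settings). The locus of VPS13B overlaps COX6C, a gene on the opposite strand. The exocyst subunit genes EXOC6B and EXOC4 had log2 fold changes of 0.54 and 0.21, and SBF2, a myotubularin-related gene, of 0.61. Without DDX17_KO 2 EXOC6B was at 0.88, not past the threshold, and with both libraries numbered 2 left out SBF2 and LRBA passed it, at 0.61 and 1.19. FAF1, a ubiquitin-binding protein gene and the most abundant of the 67, had 18.1 ± 1.34 FPKM in controls, against 16.6 ± 1.41 FPKM in DDX17_KO (SD, n = 3 each) and overlapped between the groups.

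TRAPPC9 had the lowest log2 fold change of the 67. TRAPPC9 (ENSG00000167632, chromosome 8, 139730343 to 140458579), a subunit of a tethering complex of the secretory pathway, stood at 7.58, 9.63 and 7.61 FPKM in controls. It stood at 4.67, 4.68 and 2.68 FPKM in DDX17_KO 1, 2 and 3, so every DDX17_KO library lay below every control. The log2 fold change was -0.91 (SE 0.23, adjusted p 0.283). No other tested gene overlaps its locus. SNX29, a sorting nexin gene, had 1.85 ± 0.11 FPKM in controls, against 1.27 ± 0.29 FPKM in DDX17_KO, also without overlap.

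Of 9 genes of the cytoskeleton and its GTPase regulators, 5 lay above 0 and 4 below. UTRN and DMD are paralogues whose products, utrophin and dystrophin, link actin to membrane receptors for the matrix. UTRN (ENSG00000152818, chromosome 6, 144285701 to 144853034) had 3.28, 1.03 and 1.79 FPKM in controls, against 12.9, 1.20 and 14.6 FPKM in DDX17_KO 1, 2 and 3. DDX17_KO 1 and 3 lay far above the controls and DDX17_KO 2 near the lowest of them. Its log2 fold change of 1.43 was the largest of the 67 (SE 0.72, adjusted p 0.391). Without DDX17_KO 2 the value was 2.34 (adjusted p 0.0298; 0.0134 to 0.81 across 18 settings). DMD overlapped between the groups, and its log2 fold change was 0.25 (95% confidence interval -0.42 to 0.92). The difference between the paralogues was not tested. DOCK1, an activator of the GTPase RAC, had 8.87 ± 1.93 and 11.8 ± 4.05 FPKM and a log2 fold change of 0.33.

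TTC28, a tetratricopeptide repeat gene, and ADARB2 also lay lower in every DDX17_KO library. TTC28 (ENSG00000100154, chromosome 22, 27978014 to 28679865) had 8.69, 9.09 and 9.81 FPKM in controls, against 6.20, 6.32 and 6.72 FPKM in DDX17_KO. The groups did not overlap, and the log2 fold change was -0.46 (SE 0.16, adjusted p 0.359). Its locus overlaps an antisense row, TTC28-AS1_4, and SNORD42. ADARB2 (ENSG00000185736, chromosome 10, 1177318 to 1737476), a relative of the RNA editing enzymes without shown editing activity, had 9.85, 11.8 and 9.93 FPKM in controls, against 8.09, 6.74 and 6.94 FPKM in DDX17_KO. Its log2 fold change was -0.48, again without overlap, and 2 other tested genes overlap its locus.

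Transcription and chromatin genes lay mostly on the low side, with 6 of 8 below 0 (median log2 fold change -0.15), and none passed the threshold. This count too rests on role groups that were partly filled after values were seen. Of all tested genes 52.5% were below 0. RUNX1 (ENSG00000159216, chromosome 21, 34787801 to 36004667), a transcription factor of the RUNT family, had 3.14, 2.94 and 4.43 FPKM in controls, against 1.94, 1.42 and 1.94 FPKM in DDX17_KO. Every DDX17_KO library lay below every control, and the log2 fold change was -0.69 (SE 0.19, adjusted p 0.314). GSE1, a gene of a coiled-coil protein of chromatin complexes, had 4.10 ± 0.82 and 2.95 ± 0.17 FPKM without overlap between groups, and its locus overlaps GINS2 and RN7SL381P. SMYD3, a lysine methyltransferase gene, had 6.13 ± 1.41 and 5.43 ± 1.59 FPKM, and FOXP1, a forkhead factor gene, 1.99 ± 0.33 and 1.62 ± 0.32 FPKM, both with overlap. NFIA, the gene of a nuclear factor I protein, and SUPT3H, a subunit gene of a histone acetyltransferase complex, were the genes above 0, at 0.33 and 0.20.

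**Figure D3:**
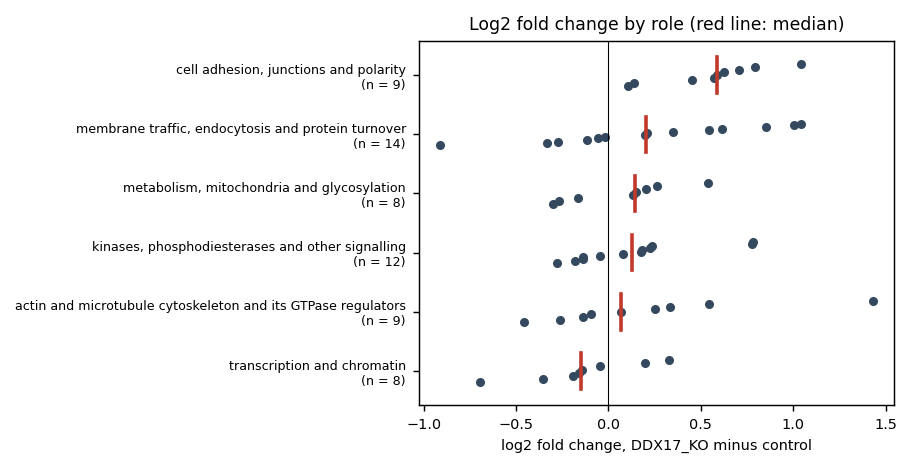
Log2 fold change (DDX17_KO minus control, log2(FPKM + 1)) of the long genes in the 6 role groups with at least 8 genes, each point a gene and the red line the median. All 9 adhesion genes lie right of 0, and 6 of 8 transcription genes lie left of it.

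Signalling genes were divided, with 7 of 12 above 0. PDE10A (ENSG00000112541, chromosome 6, 165327287 to 165986603), a phosphodiesterase of cyclic nucleotides, had 1.98, 1.04 and 1.41 FPKM in controls, against 4.44, 2.36 and 3.07 FPKM in DDX17_KO. The groups did not overlap, and the log2 fold change was 0.78 (SE 0.24, adjusted p 0.338). LINC00473 and 2 other tested genes overlap its locus. PDE4D, a phosphodiesterase of cyclic AMP, had 2.94 ± 0.93 and 3.59 ± 0.80 FPKM with overlap. GRIK2, a glutamate receptor gene, stood at 0.958, 0.681 and 0.899 FPKM in controls, against 3.14, 0.835 and 3.12 FPKM in DDX17_KO 1, 2 and 3. Without DDX17_KO 2 its log2 fold change was 1.17 (adjusted p 0.0282; 0.0116 to 0.79 across 17 settings). The protein kinase C genes PRKCA and PRKCE had log2 fold changes of -0.18 and -0.14. PRKCA, with 13.7 ± 1.20 and 12.1 ± 1.72 FPKM, overlapped between the groups. PRKCE did not overlap, at 1.18 ± 0.06 and 0.99 ± 0.21 FPKM, a difference near the spread between libraries. It had met the mean threshold through the controls.

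Among 8 genes of metabolism and glycosylation, 5 lay above 0, and the groups overlapped in all 8. ADK, the adenosine kinase gene, had 12.7 ± 1.41 FPKM in controls, against 14.8 ± 1.15 FPKM in DDX17_KO (SD, n = 3 each). DPYD, which encodes the enzyme that begins pyrimidine breakdown and also degrades fluorouracil, had 6.44, 3.95 and 6.08 FPKM in controls, against 12.8, 4.44 and 9.61 FPKM in DDX17_KO. FARS2, a mitochondrial aminoacyl-tRNA synthetase gene, had 8.35 ± 1.40 and 7.54 ± 2.60 FPKM. In FARS2 the libraries numbered 2 were the highest of each group, the opposite of their place in LRBA or UTRN. GPC5 (ENSG00000179399, chromosome 13, 91398607 to 92873682), a glypican of the cell surface, stood at 3.14, 2.71 and 2.93 FPKM in controls. It was at 0.081 FPKM in DDX17_KO 1, against 5.51 and 3.59 FPKM in DDX17_KO 2 and 3, so a single library lay far below the other 5. Without it the log2 fold change of GPC5 turned from -0.30 to 0.48.

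CDKAL1, a tRNA-modifying enzyme gene, had 9.16 ± 2.28 and 8.89 ± 1.38 FPKM and a log2 fold change of -0.02 (95% confidence interval from -0.56 to 0.51). The matrix gene THSD4 had 3.67, 3.70 and 3.73 FPKM in controls, against 3.56, 2.89 and 2.86 FPKM in DDX17_KO, without overlap and with a log2 fold change of -0.20. DLEU1, a noncoding RNA gene, had 0.829 ± 0.13 and 1.19 ± 0.09 FPKM, also without overlap. Its locus overlaps DLEU2 and 3 other tested rows, so the division of fragments among them is uncertain. The 9 members of a list of common fragile site genes lay above 0 in 7 cases, with a median log2 fold change of 0.25. Of all 67 genes 40 lay above 0. The 9 include NBEA and LRP1B, which had met the mean threshold through DDX17_KO. Their median deviation from the control mean was 0.79, -0.08 and 0.24 in DDX17_KO 1, 2 and 3.

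Transcript GC content moved with these differences, and its part in them was not tested beyond the correction given next. Across the 67 genes, which share libraries and are not independent, the log2 fold change had a Pearson r of -0.53 and a Spearman rho of -0.57 with the GC content of the transcript. With transcript length r was 0.31 and rho 0.18, and with the span of the locus r was 0.03 and rho 0.06. Over 15564 tested genes rho with GC content was -0.52. The 21 long genes under 43% GC included 18 above 0, with a median log2 fold change of 0.29, and coding genes of shorter span and the same GC were above 0 in 78.6%, with a median of 0.29. The 16 long genes of at least 51% GC included 2 above 0, with a median of -0.23, and shorter coding genes of that GC were above 0 in 10.0%, with a median of -0.29. Between 43% and 47% GC the medians were 0.34 for 12 long genes and 0.04 for shorter coding genes, and between 47% and 51% GC they were 0.09 for 18 long genes and -0.13. The spread within a GC range was wide: RUNX1 at 47.1% and ROBO1 at 47.1% had log2 fold changes of -0.69 and 0.80.

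**Figure D4:**
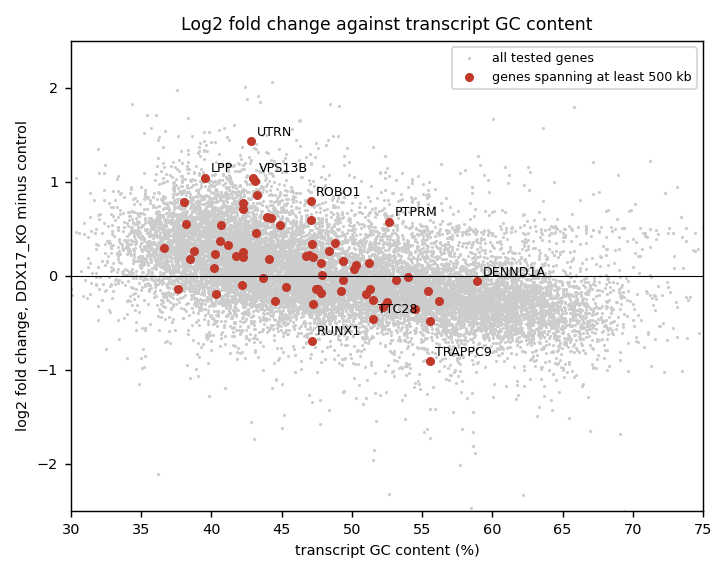
Log2 fold change (DDX17_KO minus control) against the GC content of the transcript in percent, for all tested genes (grey, within the plotted range) and the long genes (red). The red points follow the grey cloud downward, from UTRN and LPP on the left to TRAPPC9 on the right, with ROBO1 and RUNX1 at the same GC on opposite sides of 0.

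Correcting each library for GC content and transcript length lowered the median of the 67 genes from 0.15 to 0.09, and that of all tested genes went from -0.03 to 0.01. The corrected log2 fold change was 1.05 for UTRN, 0.69 for LRBA, 0.63 for VPS13B, 0.52 for NBEA, 0.47 for LPP, 0.41 for PDE10A and 0.22 for LRP1B. It was -0.77 for RUNX1, -0.77 for TRAPPC9, -0.54 for TTC28 and 0.71 for ROBO1, each at most 0.15 from its uncorrected value. After correction the groups did not overlap in 11 genes on the higher and 12 on the lower side, where 12.7% and 11.1% of tested genes did so, and limma called 0 of the 67, where it called 0.0064% higher and 0.0576% lower of all tested genes. The corrected median deviation was 0.15, -0.05 and 0.09 in DDX17_KO 1, 2 and 3.

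Genes over 100 kb had median log2 fold changes between 0.13 and 0.18 in every class of locus span. The median log2 fold change was -0.02 for 6335 tested genes under 10 kb, -0.11 from 10 to 50 kb and 0.04 from 50 to 100 kb. It was 0.15 from 100 to 200 kb, 0.15 for 646 genes from 200 to 500 kb, 0.18 for 73 genes from 500 to 1000 kb and 0.13 for the 14 genes of at least 1000 kb. After GC and length correction the medians of the last 2 classes were 0.09 and -0.09. Median transcript GC content was 50.3% under 10 kb, 44.3% from 100 to 200 kb and 46.8% from 500 to 1000 kb. By library, the median from 500 to 1000 kb was 0.26 in DDX17_KO 1, -0.10 in DDX17_KO 2 and 0.23 in DDX17_KO 3.

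**Figure D5:**
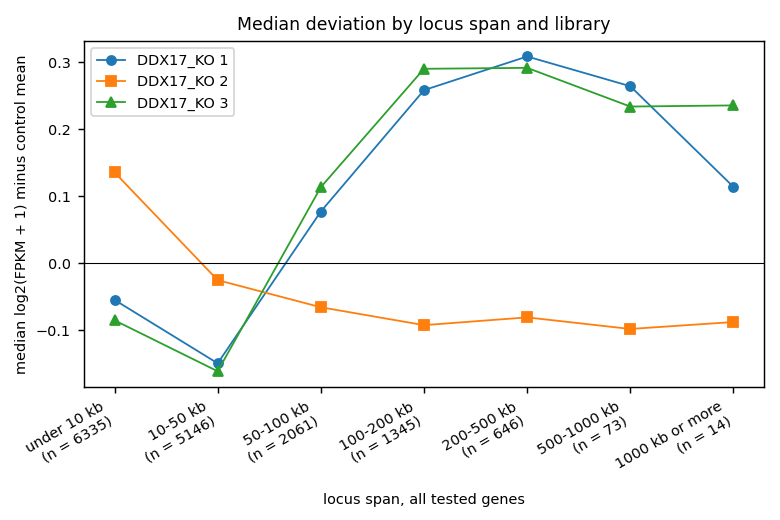
Median deviation of log2(FPKM + 1) from the control mean in each DDX17_KO library, for all tested genes in 7 classes of locus span (number of genes under each class). DDX17_KO 1 and 3 lie above 0 from 50 kb upward and DDX17_KO 2 lies below 0 in those classes.

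The members nearest to 500 kb were DNAH14, PPP2R2B and ERC1, and those nearest to the mean of 1 FPKM were DNAH14, DLEU1 and PRKCE. Just below 500 kb stood DIAPH3, CACNA2D1 and ITPR2. DIAPH3, a formin gene of 498405 bases, had 11.4, 4.84 and 9.65 FPKM in controls, against 16.3, 6.30 and 16.1 FPKM in DDX17_KO. ITPR2, a calcium channel gene of 496684 bases, had 2.80, 1.01 and 1.99 FPKM in controls, against 7.66, 1.08 and 6.24 FPKM in DDX17_KO. Both repeat the high DDX17_KO 1 and 3 and the low libraries numbered 2 of LRBA. Just under a mean of 1 FPKM stood CDH12, IMMP2L and GALNT13, at means of 0.866, 0.859 and 0.826 FPKM.

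Genes that act in the transcription of long genes were read from a list of 57 topoisomerases, elongation factors and RNA-binding factors, none of which is among the 67. Of 56 tested rows, 31 lay above 0 and 25 below, and the median log2 fold change was 0.04. It ran from -0.63 in NELFB to 1.13 in SETD2. By limma 0 were called, and at an unadjusted p under 0.05 6 were higher and 2 lower, where 6.31% and 7.19% of tested genes were. Without overlap 3 were higher (5.36%, against 8.09% of tested genes) and 7 lower (12.5%, against 12.6%). MATR3 was counted in 2 rows, ENSG00000015479 at 1.04 and higher without overlap, and ENSG00000280987 at -0.46 with overlap. The topoisomerase genes TOP1, TOP2A and TOP2B, whose products relax the supercoils that a polymerase leaves, had log2 fold changes of 0.41, 0.73 and 0.75. Each overlapped between the groups (limma, adjusted p 0.530, 0.451 and 0.442). TOP2B stood at 19.4, 7.79 and 14.2 FPKM in controls, against 33.3, 11.1 and 30.3 FPKM in DDX17_KO 1, 2 and 3, with the libraries numbered 2 lowest in each group. The elongation kinase gene CDK12 had 5.13 ± 1.02 and 6.88 ± 1.61 FPKM. SFPQ, which encodes an RNA-binding protein of long-gene transcription, had 47.1 ± 4.28 and 44.2 ± 5.24 FPKM and overlapped between the groups.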

How the data were processed

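The values are FPKM, which the authors deposited in 1 table with a column per library. CASAVA 1.8, HISAT2, StringTie, edgeR and hg38 appear in the submitters' processing notes, with no role stated. The sources used here give no annotation release, strand setting or filter. Groups and replicate numbers came from the sample titles. Depth was estimated from the whole-number steps of FPKM times length in genes with 1 transcript.

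Genes averaging 0.5 FPKM or more, 15620 in all, were tested on the log2(FPKM + 1) scale in limma 3.58.1 (R 4.3.3; intensity trend, no block, two-sided), and p-values were adjusted by Benjamini-Hochberg. The script was tested on simulated data. For DDX17 an exact permutation test, two-sided, gave p = 0.1 over 20 arrangements, the smallest value 3 against 3 libraries allow. Transcript properties came from GENCODE release 29, where all 67 members had an identifier and 60 the same locus. Role groups held 50 members; 17 were assigned after values were seen. Named genes were those without overlap, up to 8 per direction, the 6 most abundant, the 3 widest, those nearest the thresholds and 2 per role list. UTRN, LRBA, VPS13B, NBEA, GRIK2, GPC5, PTPRK, PTPRM, TENM3, CDH13, EXOC6B, SBF2, MAGI1, FOXP1 and SUPT3H were added after their values were seen. Members and lists were chosen with earlier results of these data known. Across tested genes, deviations from the group mean correlated at 0.546 between the libraries numbered 2. The correlation was 0.300 between those numbered 1 and 0.214 between those numbered 3. It was 0.329 for control 1 with DDX17_KO 3 and 0.190 for control 3 with DDX17_KO 1. These values set apart only the libraries numbered 2 as a pair, and the labels name no pairing.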

Additional observations from a re-analysis of the deposited data

How the results depend on the processing

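The counts changed with the libraries numbered 2 and with array weights. Members called higher numbered 0 with all libraries and 11 with both libraries numbered 2 left out (5.51% of tested genes). In settings chosen after seeing the data they numbered 2 with GC and length correction without DDX17_KO 2 (0.736%) and 15 with array weights. Array weights also called 5 lower, and the calls covered 11.7% and 13% of tested genes. Leaving out single libraries gave 0 to 5 called higher and 0 lower. Members without overlap, higher, were 4 in all (8.09% of tested genes) and 2 with a mean of at least 2 FPKM (386 of 9566 tested genes). They were 11 with GC and length correction, alone or with the replicate block (12.7% of tested genes). Without both libraries numbered 2 they were 36 (31%), and with correction and without DDX17_KO 2 they were 29 (25.7%). With single libraries left out they were 4 to 35, the 35 without DDX17_KO 2, where 28.2% of tested genes were. Lower, they were 8 in all (12.6% of tested genes) and 13 under quantile normalization (13.2%). Without both libraries numbered 2 they were 18 (35.4%), and with correction and without DDX17_KO 2 they were 16 (25.9%). With single libraries left out they were 9 to 14, the 14 without control 2, where 14.9% of tested genes were. At 300 kb, 13 of 257 genes were higher and 26 lower without overlap, at 1000 kb 1 and 1 of 9, and at 5 FPKM 0 and 3 of 21. Of all tested genes, 8.09% were higher and 12.6% lower without overlap. The counts at 300 kb, 1000 kb and 5 FPKM use other member thresholds over the same 15620 tested genes. The cause of these and the other changes in count was not tested. The replicate block changed no call of a member.

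The median log2 fold change of the members ran from 0.07 to 0.26 with single libraries left out. The difference in median between genes of at least 500 kb and those under 10 kb was 0.19; it ran from 0.07 to 0.32 with single libraries left out, was 0.058 with GC and length correction and 0.053 with correction and without DDX17_KO 2, and changed sign to -0.013 with no filter on low values. DDX17 had -1.04 without DDX17_KO 2, -1.08 without both libraries numbered 2, -1.20 with correction and without DDX17_KO 2 and -1.11 with array weights, past the threshold in each; with single libraries left out it ran from -1.76 to -1.04. With GC and length correction, alone or with the replicate block, DMD turned to -0.179, PDE4D to -0.0924, PPP2R2B to -0.111, NFIA to -0.0166 and FARS2 to 0.0976. With correction and without DDX17_KO 2, DMD was at -0.181, PDE4D at -0.220, DLEU1 at -0.0409, SUPT3H at -0.0941 and FARS2 at 0.0024. CDKAL1 turned to 0.0207 under median-of-ratios scaling and to 0.0084 under quantile normalization. With single libraries left out CDKAL1 ran from -0.222 to 0.104, DMD from -0.0159 to 0.517, FARS2 from -0.396 to 0.0155 and GPC5 from -0.815 to 0.479. None of these reversed values passed the threshold. DDX17_KO 2 was the shallowest library, at 5350000 fragments, so its values for low genes are less certain. Control 2, the lowest control in 44 of the 67 genes, had 13900000 fragments. The part of depth in the values of the libraries numbered 2 was not tested.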
